A study of Homo sapiens with 18 samples.

Results

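The plasminogen system and the matrix metalloproteinases (MMPs) degrade the extracellular matrix, and 9 of their genes were followed here: PLAU (urokinase plasminogen activator), PLAT (tissue plasminogen activator), PLAUR (the urokinase receptor), the metalloproteinases MMP2, MMP14 and MMP7, and the tissue inhibitors of metalloproteinases TIMP1, TIMP2 and TIMP3. They were chosen by name as a family, with earlier results of these data known, and all 9 were among the 23106 genes of the count files. PolyA+ RNA was sequenced from 3 established human cell lines in normoxia and in hypoxia, with 3 samples in each of the 6 groups and 18 samples in all. HKC-8 cells are a line of kidney proximal tubule origin, RCC4 cells are a kidney cancer line that had been stably transfected with wild-type VHL (the labels write RCC4+VHL), and HepG2 cells are a hepatocellular cancer line. Both RCC4 groups carried the VHL transgene, so the comparison of hypoxia with normoxia was made in cells with VHL restored, and the promoter driving it and whether the line was a single clone are not given in the sources used here. Hypoxia was 0.5% oxygen for 16 h in HKC-8 and HepG2 cells. The labels give 1% for 24 h in RCC4 cells where the text of the study gives the same exposure for each line, and hypoxic HKC-8 samples are titled 0.1% although their characteristics name 0.5%. Nothing in the labels says that the 3 samples of a group came from separate cultures, so p-values measure the spread between these samples, which may be technical.

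Plasminogen is cut to plasmin by PLAU or PLAT, and PLAUR holds PLAU at the cell surface. Plasmin digests fibrin and other matrix proteins and can also activate metalloproteinase precursors. MMP14 is anchored in the membrane and activates pro-MMP2 together with TIMP2, MMP7 is a small metalloproteinase of epithelial cells, and TIMPs bind the active site of metalloproteinases, TIMP3 being the member that is retained in the matrix.

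Between 75441764 and 97984260 reads were counted in each HKC-8 sample, whose libraries were split over 2 lanes, and between 40915980 and 51794355 in each sample of the other lines, so that 3 counts stood for 0.0306 to 0.0733 CPM (the count of a gene scaled to the size of its library). Line and depth therefore cannot be told apart in any comparison between HKC-8 cells and the others. Hypoxia control genes rose in all lines (all 8 tested in HKC-8 and HepG2 cells and all 6 tested in RCC4 cells). CA9 and EGLN3, which rose in the other lines, had too few counts for the test in RCC4 cells. All 6 hepatocyte markers were above 1 CPM in HepG2 cells, and PAX8, a kidney lineage gene, lay between 127 and 180.1 CPM in the normoxic samples of both kidney lines. Of 4 kidney lineage markers, 3 had a mean above 1 CPM in RCC4 cells but only 1, PAX8, in HKC-8 cells. PAX8 was also the 1 of 4 above 1 CPM in HepG2 cells, at a mean of 9.43 CPM in normoxia. Markers of the differentiated proximal tubule were absent or nearly so in HKC-8 cells, where none of 6 reached 1 CPM in either condition and SLC22A6 had no counts.

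The promoters of TIMP3 and PLAUR, the members that rose in hypoxia in HepG2 or RCC4 cells, and of MMP7, the member that fell most in RCC4 cells, are given here and were searched for ACGTG and GCGTG, the letters that the hypoxia-inducible factors bind. They were chosen after their values were seen, and the largest normoxic differences of PLAU and MMP14 between lines exceeded that of PLAUR. Of the 9 members, 6 were matched in the RefSeq promoter windows (GRCh38.p14, 250 bases before to 50 bases after the start), with 7 windows in all. Each line below runs 5′ to 3′ along the gene over 245 bases of the window that end 25 bases after the start, with ACGTG or GCGTG on either strand in capitals. TIMP3 was without counts in RCC4 cells and rose in HepG2 cells, MMP7 was nearly restricted to RCC4 cells and fell there, and PLAUR rose in RCC4 cells.
TIMP3 promoter, plus strand, chr22:32801485-32801729: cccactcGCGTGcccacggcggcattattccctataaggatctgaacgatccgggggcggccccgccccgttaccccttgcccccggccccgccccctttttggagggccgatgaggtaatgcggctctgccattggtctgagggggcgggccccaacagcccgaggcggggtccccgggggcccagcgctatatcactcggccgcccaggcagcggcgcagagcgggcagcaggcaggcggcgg
MMP7 promoter, minus strand, chr11:102530723-102530967: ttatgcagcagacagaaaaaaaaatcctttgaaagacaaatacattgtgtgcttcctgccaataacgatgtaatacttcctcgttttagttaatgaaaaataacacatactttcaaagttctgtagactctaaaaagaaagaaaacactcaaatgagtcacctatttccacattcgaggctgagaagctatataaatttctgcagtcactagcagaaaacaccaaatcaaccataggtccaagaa
PLAUR promoter, minus strand, chr19:43670145-43670389: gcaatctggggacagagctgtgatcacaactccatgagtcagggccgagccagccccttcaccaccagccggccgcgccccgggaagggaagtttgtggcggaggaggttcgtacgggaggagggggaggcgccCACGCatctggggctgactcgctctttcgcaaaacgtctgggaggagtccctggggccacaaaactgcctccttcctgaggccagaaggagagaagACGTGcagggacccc
The full TIMP3 window held 31 CpG dinucleotides and was 72.7% G or C, the PLAUR window 18 and 64.0%, and the MMP7 window 4 and 35.7%, against a median of 14 and 58.7% over 35116 windows. ACGTG was found in 21.4% of all windows, GCGTG in 36.5% and either in 48.4%, counting both strands. Counted from the start, the PLAUR window held ACGTG with its first base at 11 and GCGTG on the opposite strand at −86, and the TIMP3 window held GCGTG at −213. The 4 remaining windows of members (TIMP1, MMP14 and a pair for PLAU) held either motif in 3 cases. A match describes these letters and is not a binding site, and the lack of a match in the MMP7 window says only that these letters are not in it.

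To ask how the family differed between the cell lines before hypoxia, the 9 normoxic samples were compared in pairs of lines by edgeR's quasi-likelihood test on counts, with Benjamini-Hochberg adjustment over 14806 genes, and a gene was called at an adjusted p under 0.05. Levels are in CPM scaled by the trimmed mean of M-values (TMM), given as the mean ± SD of 3 samples. In such bulk RNA, fewer cells that express a gene and less RNA in each cell cannot be told apart. Between RCC4 and HKC-8 cells 8 of 9 members differed (80.8% of all genes tested did), between HepG2 and HKC-8 cells 8 of 9 (83.0%), and between HepG2 and RCC4 cells 9 of 9 (83.3%). The members' shares thus lay near those of all genes. MMP2 passed the low-count filter of this fit only through HepG2 cells and MMP7 only through RCC4 cells. Their contrasts between the remaining lines rest on few counts, and the call of MMP7 between HepG2 and HKC-8 cells is among those counted. The median log2 difference of all genes was −0.014, 0.021 and 0.11 in the same order.

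**Figure D1:**
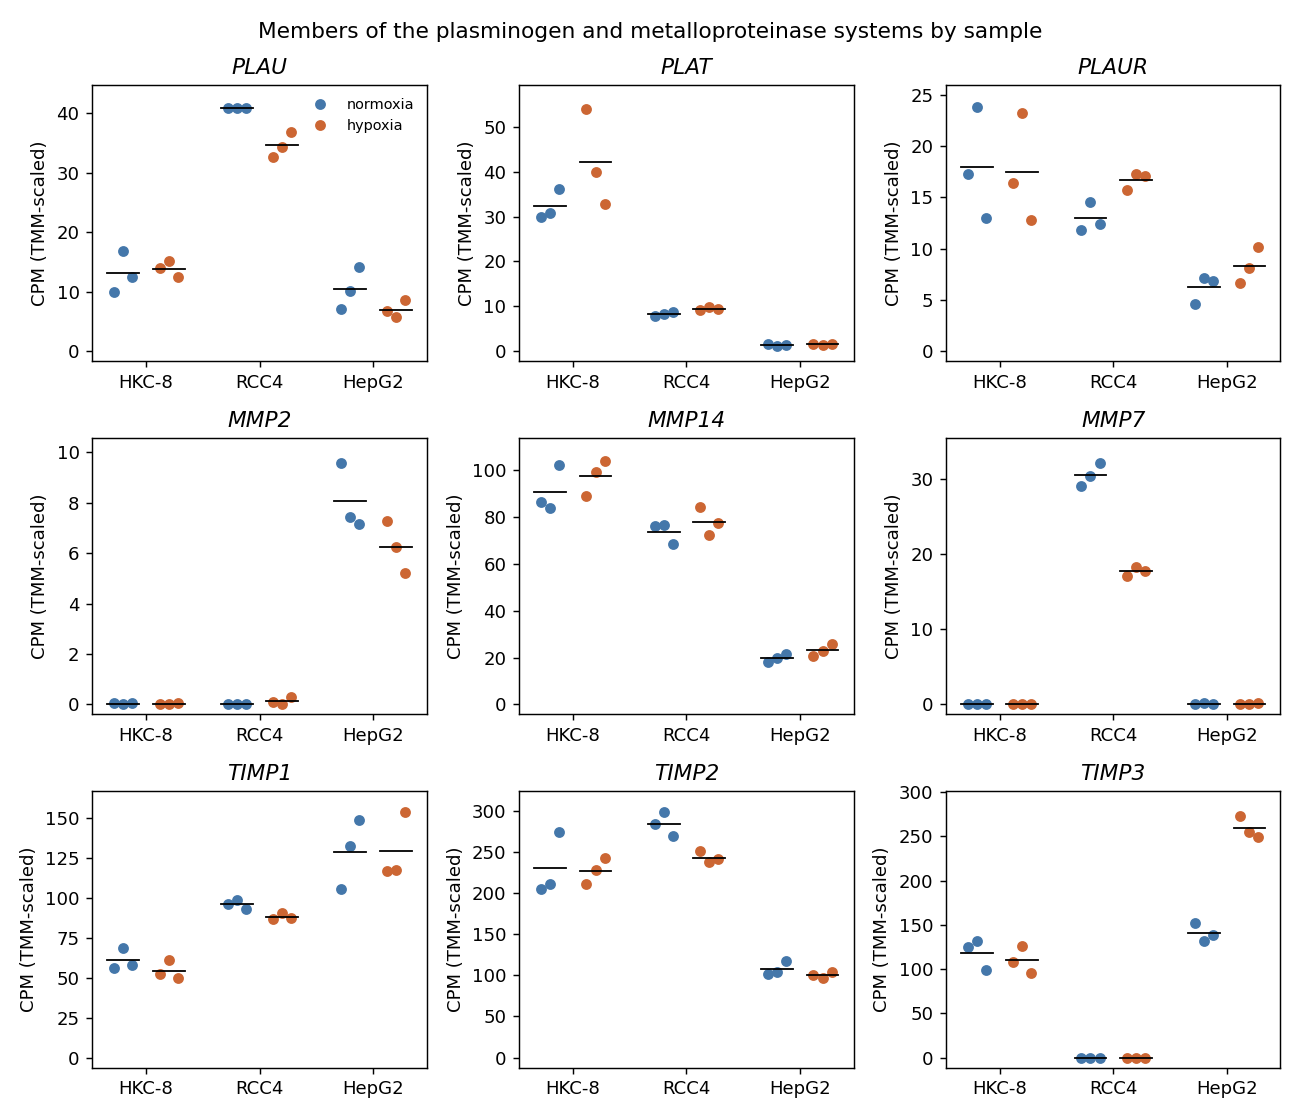
Level of each member in every sample, as TMM-scaled CPM on a linear axis that differs between panels, in normoxia (blue) and hypoxia (orange) for each cell line, with points for replicates 1 to 3 from left to right and a bar at their mean. TIMP3 lay at 0 in all 6 RCC4 samples, MMP7 was above 1 CPM only in RCC4 cells, and MMP2 only in HepG2 cells.

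The plasminogen activators were ordered differently over the lines. PLAU (GRCh37, chromosome 10, 75668935 to 75677254, plus strand) had 40.8, 40.9 and 40.8 CPM in normoxic RCC4 cells, against 9.98, 16.8 and 12.5 CPM in HKC-8 and 7.03, 10.1 and 14.2 CPM in HepG2 cells. RCC4 cells thus lay above both other lines without overlap, by 1.65 on the log2 scale over HKC-8 cells (SE 0.21, edgeR adjusted p = 5.04e-06). HKC-8 and HepG2 cells overlapped in PLAU and did not differ beyond their spread (adjusted p = 0.196), although without HepG2 normoxia replicate 3, the highest of its group, HepG2 cells were lower (adjusted p = 0.0139). PLAT was ordered HKC-8, RCC4, HepG2, at 32.3 ± 3.32, 8.28 ± 0.40 and 1.31 ± 0.22 CPM (n = 3 each), and each step in this order passed the test. PLAU and PLAT were therefore highest in different lines, and PLAT had as few as 49 counts in a HepG2 sample. Over 31% of the exonic length of PLAU the antisense gene C10orf55 is annotated. The strand setting of the counting is not given in the sources used here. It is thus not known whether reads there were counted for PLAU, for C10orf55 or for neither. C10orf55 itself had 0 to 20 counts in a sample, which does not settle this. Other annotated genes share at most 5.91% of the exonic length of TIMP2 and 3.7% of that of MMP2.

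PLAUR (chromosome 19, 44150247 to 44174699, minus strand) had 17.2, 23.8 and 13.0 CPM in normoxic HKC-8 cells, 11.9, 14.6 and 12.4 CPM in RCC4 cells and 4.65, 7.18 and 6.85 CPM in HepG2 cells. HepG2 cells were lowest without overlap (2.85-fold below HKC-8, edgeR adjusted p = 1.27e-05), while the kidney lines overlapped. The lower PLAUR level of RCC4 than of HKC-8 cells (adjusted p = 0.0471) lost its call without HKC-8 normoxia replicate 1 or 2, RCC4 normoxia replicate 1 or 3 or HepG2 normoxia replicate 3, and also with DESeq2, median-of-ratios factors or at least 10 counts in every sample (adjusted p = 0.0591 to 0.263 over these 8 of 15 alternatives).

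Each of MMP2 and MMP7 was well expressed in a single line, and MMP14 in all. MMP2 (gelatinase A; chromosome 16, 55423612 to 55540603, plus strand) had 9.59, 7.43 and 7.16 CPM in normoxic HepG2 cells, while 8 counts were found over the 3 normoxic HKC-8 samples and 2 over the 3 RCC4 samples. The pooled ratio of HepG2 to HKC-8 cells was 253 (95% interval 121 to 624, for counting error only) and that of HepG2 to RCC4 cells 576 (150 to 5052). MMP2 was not called between HKC-8 and RCC4 cells (edgeR adjusted p = 0.390). It entered that fit through the HepG2 samples and was too low for the test within HKC-8 or RCC4 cells. With 8 counts against 2, that contrast cannot show whether these lines differ in MMP2, and neither a difference nor a likeness is read from it.

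MMP7 (matrilysin; chromosome 11, 102391239 to 102401481, minus strand) had 29.1, 30.5 and 32.2 CPM in normoxic RCC4 cells, no counts in any normoxic HKC-8 sample, and 4, 8 and 1 counts in the normoxic HepG2 samples. With 3 counts taken as the floor over the HKC-8 group, RCC4 cells had at least 2571-fold more MMP7 RNA, and the ratio to HepG2 cells was 309 (95% interval 175 to 597). The few counts of HepG2 cells, at a mean of 0.0979 CPM, were called above the absence of counts in HKC-8 cells (edgeR adjusted p = 4.89e-04). MMP7 entered that fit through the RCC4 samples and was too low for the test within HepG2 or HKC-8 cells. No difference between these lines is read from that call. MMP14 (membrane type 1 MMP; chromosome 14, 23305769 to 23318250, plus strand) was ordered HKC-8, RCC4, HepG2 at 90.9 ± 9.87, 73.8 ± 4.59 and 19.8 ± 1.83 CPM. HepG2 cells were 4.53-fold below HKC-8 cells (adjusted p = 7.49e-11), and the smaller step between the kidney lines (adjusted p = 0.0102) lost its call without RCC4 normoxia replicate 3 (adjusted p = 0.0569).

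The 3 inhibitors had 3 different orders. TIMP1 (chromosome X, 47441807 to 47446188, plus strand) was ordered HepG2, RCC4, HKC-8 at 129 ± 21.8, 96.1 ± 2.97 and 60.8 ± 6.65 CPM, and each step passed the test. TIMP1 lies within SYN1, which had 0 to 21 counts in a sample. TIMP2 (chromosome 17, 76849059 to 76921469, minus strand) was ordered RCC4, HKC-8, HepG2 at 284 ± 14.6, 231 ± 38.2 and 108 ± 8.52 CPM. The RCC4 and HKC-8 samples overlapped in TIMP2, and that step (adjusted p = 0.0127) was lost without HKC-8 normoxia replicate 1 or 2 or RCC4 normoxia replicate 2 (adjusted p = 0.0508 to 0.0679).

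TIMP3 (chromosome 22, 33197691 to 33259028, plus strand) had 125, 132 and 99.2 CPM in normoxic HKC-8 cells and 152, 132 and 139 CPM in normoxic HepG2 cells, and 0 counts in each of the 6 RCC4 samples, normoxic and hypoxic. Against a floor of 3 counts over the RCC4 group, normoxic TIMP3 RNA was at least 5710-fold lower in RCC4 than in HKC-8 cells and at least 6698-fold lower than in HepG2 cells, and in hypoxia at least 5815-fold and 12465-fold lower. HepG2 and HKC-8 cells lay close, with HepG2 cells 1.20-fold higher (edgeR adjusted p = 0.0282), a call lost without the low-count filter, without HKC-8 normoxia replicate 3 or without any 1 of the normoxic HepG2 samples, with an adjusted p of up to 0.231. The nearest protein-coding neighbours that were counted in all lines did have reads in RCC4 cells, with 6237 to 7085 counts a sample for FBXO7, 302.9 kb away, and 1446 to 1914 for HMGXB4, 2394 kb away on the other side. SYN3, which spans TIMP3, had no counts in HKC-8 or RCC4 cells and 124 to 178 in HepG2 cells, so a count of 0 for it was not particular to RCC4 cells.

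To compare members with each other, CPM was divided by the length of the union of their GENCODE exons in kb. TIMP1 was the highest of the 9 members in every line, at 42.1 ± 4.60, 66.4 ± 2.05 and 89.1 ± 15.1 CPM per kb in normoxic HKC-8, RCC4 and HepG2 cells. TIMP2 ranked above TIMP1 in HKC-8 cells when the longest transcript was used as the length (63.2 against 55.5 CPM per kb). The activators lay lower, with PLAU at 4.44 ± 1.17, 13.9 ± 0.013 and 3.55 ± 1.22 CPM per kb in normoxic HKC-8, RCC4 and HepG2 cells.

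Within the summed TIMP level per kb of normoxic cells, TIMP1, TIMP2 and TIMP3 took 40.0%, 35.4% and 24.6% in HKC-8 cells, 59.2%, 40.8% and 0% in RCC4 cells, and 64.7%, 12.7% and 22.6% in HepG2 cells (means of 3 samples, SD at most 5.61 points). In hypoxia the TIMP3 share of HepG2 cells was 35.0% ± 3.90, its lowest sample at 30.6% lying above the highest normoxic sample at 27.0%, and the share of HKC-8 cells was 24.3% ± 1.99. With the longest transcript as the length the TIMP3 shares of HepG2 cells were 17.4% in normoxia and 28.1% in hypoxia. Among the 3 metalloproteinases MMP14 took over 99.9% in HKC-8 cells, and in RCC4 cells it took 54.7% ± 2.75 in normoxia and 68.7% ± 2.38 in hypoxia, with MMP7 taking 45.2% and 31.2%. With the longest transcript as the length the order in normoxic RCC4 cells turned, with MMP7 at 23.1 and MMP14 at 19.2 CPM per kb. In HepG2 cells MMP14 took 70.9% in normoxia and MMP2 28.4%.

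**Figure D2:**
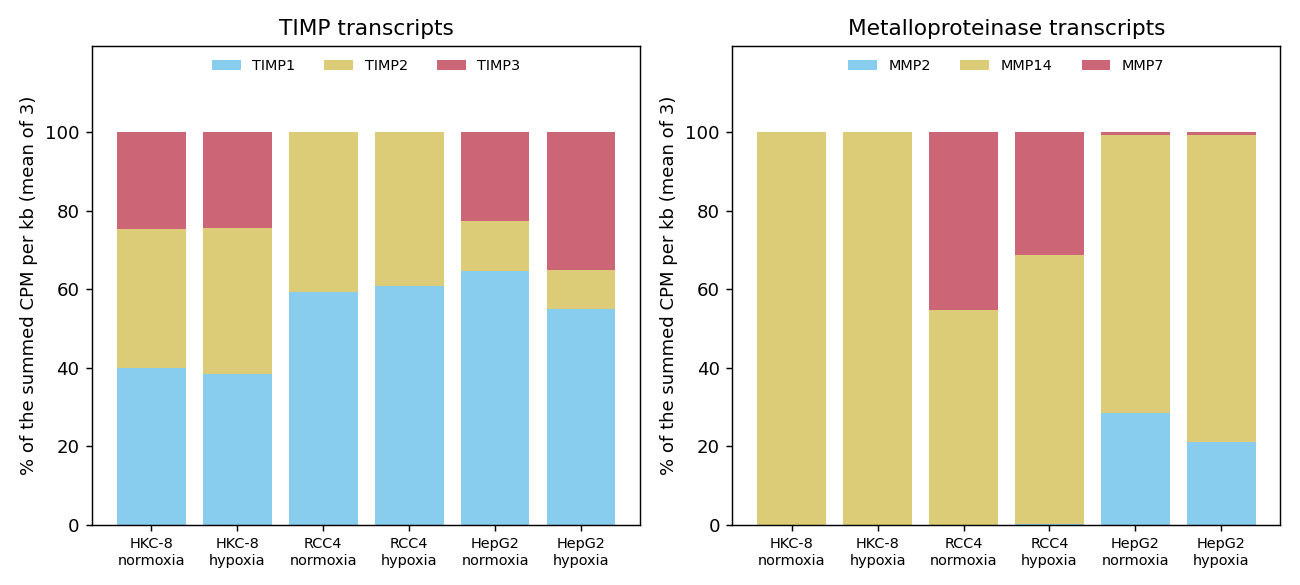
Makeup of the TIMP transcripts (left) and of the 3 metalloproteinases (right) as percent of their summed CPM per kb of exon union, with stacked bars giving the mean of 3 samples in each group. RCC4 cells lacked a TIMP3 share, the TIMP3 share of HepG2 cells was 22.6% in normoxia and 35.0% in hypoxia, and the MMP7 share of RCC4 cells was 45.2% and 31.2%.

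To ask how the family responded to hypoxia, each line's 3 hypoxic samples were set against its 3 normoxic samples by the same test. In RCC4 cells, 1 of the 7 members tested rose (25.9% of all 12811 genes did) and 4 fell (24.2% did), while MMP2 and TIMP3 had too few counts to be tested. The median log2 fold change of the 7 was −0.12, and that of all genes −0.0018. With libraries scaled to total counts alone, 2289 genes rose and 4651 fell, against 3318 and 3105 with TMM, and the 5 members kept their direction and call.

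MMP7 had the largest response of the members in RCC4 cells. Its level was 29.1, 30.5 and 32.2 CPM in normoxia and 17.05, 18.3 and 17.8 CPM in hypoxia, so the groups lay far apart with little spread in either. It fell by 0.78 on the log2 scale (SE 0.06, 1.72-fold, edgeR adjusted p = 3.58e-10), and over all alternatives by 0.75 to 0.86.

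PLAUR rose and PLAU fell in RCC4 cells, so the receptor and its ligand moved in opposite directions. PLAUR had 11.9, 14.6 and 12.4 CPM in normoxia and 15.7, 17.2 and 17.1 CPM in hypoxia, every hypoxic sample lying above every normoxic sample (log2 fold change 0.37, SE 0.08, edgeR adjusted p = 5.44e-04). PLAU had 40.8, 40.9 and 40.8 CPM in normoxia and 32.6, 34.4 and 36.9 CPM in hypoxia, with no overlap and nearly all of the spread in the hypoxic samples (log2 fold change −0.23, SE 0.05, adjusted p = 8.50e-04). PLAT had 7.88 to 8.68 CPM in normoxia and 9.19 to 9.75 CPM in hypoxia, and its log2 difference of 0.20 did not pass (adjusted p = 0.0758).

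Both expressed inhibitors fell in RCC4 cells, by less than 1.2-fold. TIMP2 had 284, 299 and 269.7 CPM in normoxia and 252, 238 and 241 CPM in hypoxia, and TIMP1 had 96.3, 98.9 and 93.0 CPM in normoxia and 87.0, 90.5 and 87.4 CPM in hypoxia. Neither gene's groups overlapped. The log2 fold change was −0.22 for TIMP2 (SE 0.04, edgeR adjusted p = 4.27e-05) and −0.12 for TIMP1 (SE 0.04, adjusted p = 0.0181), the latter lost without RCC4 normoxia replicate 2 or RCC4 hypoxia replicate 1 or 3 (adjusted p = 0.0547 to 0.0782). When all 18 samples shared 1 estimate of the spread, PLAU, PLAUR, TIMP1 and TIMP2 lost their calls (adjusted p = 0.0811 to 0.510, the lowest for TIMP2) and MMP7 kept its call. MMP14 had 68.5 to 76.7 CPM in normoxia and 72.4 to 84.1 CPM in hypoxia, overlapping, with a log2 difference of 0.08 (adjusted p = 0.194) that was −2.38e-05 with total counts and passed the test without RCC4 hypoxia replicate 2 (0.13, adjusted p = 0.0489).

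MMP2 had 1, 0 and 1 counts in normoxic and 4, 1 and 15 counts in hypoxic RCC4 cells. It was too low for the test, but without the low-count filter it passed as higher (log2 fold change 3.08, SE 1.18, edgeR adjusted p = 0.0248), with 15 of the 20 hypoxic counts in replicate 3.

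In HepG2 cells, 1 of the 8 members tested rose (19.9% of all 13623 genes did) and 1 fell (19.2% did), and MMP7 was not tested. The median log2 fold change of the 8 was 0.11, and that of all genes −0.0044. With total counts alone 1978 genes rose and 4081 fell, against 2708 and 2621 with TMM, and TIMP3 still rose while MMP2 and TIMP2 passed as lower beside PLAU.

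TIMP3 was the member that rose. Its level was 152, 132 and 139 CPM in normoxia and 273, 255 and 249 CPM in hypoxia, so the lowest hypoxic sample was far above the highest normoxic sample. The log2 fold change was 0.88 (SE 0.06, 1.84-fold, edgeR adjusted p = 2.42e-07), and it was called under all alternatives with values of 0.79 to 0.93. The summed level of 5 fibroblast markers moved with it, from 26.7 to 29.7 CPM in normoxic to 62.9 to 71.3 CPM in hypoxic HepG2 cells. Only 2 of the 5 were above 1 CPM, and most of the rise was PDGFRB (mean 21.7 to 58.0 CPM), with COL1A1 at 6.42 and 9.38 CPM. PDGFRB was called as higher in all 3 lines, and COL1A1 in HepG2 cells alone. The defining markers COL1A2 and DCN were at 0, and the part of this sum in the TIMP3 result was not tested. In HKC-8 cells the same sum was 10.1 to 17.5 CPM in normoxia and 22.2 to 25.4 CPM in hypoxia, while TIMP3 was not called there (−0.11), and in RCC4 cells, where TIMP3 had no counts, the sum was 43.7 to 49.3 CPM in normoxia and 62.9 to 66.2 CPM in hypoxia.

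PLAU fell in HepG2 cells, though its groups overlapped. It had 7.03, 10.1 and 14.2 CPM in normoxia and 6.69, 5.80 and 8.54 CPM in hypoxia, the widest normoxic spread of the 3 lines relative to its mean. The log2 fold change of −0.58 (SE 0.21, edgeR adjusted p = 0.0423) lost its call with DESeq2 (adjusted p = 0.157) and without HepG2 normoxia replicate 2 or 3 or HepG2 hypoxia replicate 1 or 2 (adjusted p = 0.0730 to 0.167), and without normoxia replicate 3 it was −0.31.

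The other members of HepG2 cells were not called, with differences near the threshold for some. PLAUR had 4.65, 7.18 and 6.85 CPM in normoxia and 6.69, 8.10 and 10.2 CPM in hypoxia (log2 difference 0.41, 95% interval 0.031 to 0.80, edgeR adjusted p = 0.0821), and it was called in 6 of 13 alternatives. MMP2 had 9.59, 7.43 and 7.16 CPM in normoxia and 7.29, 6.25 and 5.20 CPM in hypoxia (log2 difference −0.37, 95% interval −0.68 to −0.049, adjusted p = 0.0650), and it was called in 5 of 13. In both genes a single sample closed the gap between the groups.

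MMP14 had 18.02 to 21.7 CPM in normoxia and 20.8 to 25.7 CPM in hypoxia in HepG2 cells (log2 difference 0.22, edgeR adjusted p = 0.0912). It was called as higher in 2 of 13 alternatives, with the replicate block (adjusted p = 0.0310) and without HepG2 normoxia replicate 3 (adjusted p = 0.0287). PLAT was at 1.10 to 1.54 CPM in normoxia and 1.48 to 1.64 CPM in hypoxia (0.26, adjusted p = 0.371). TIMP1 differed by 0.0036 on the log2 scale (95% interval −0.26 to 0.26), a difference that was −0.090 with total counts, and TIMP2 by −0.11 (−0.25 to 0.033). The inhibitors of HepG2 cells thus did not move as a group: TIMP3 was called, and the intervals of TIMP1 and TIMP2 included 0.

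In HKC-8 cells none of the 7 members tested was called by edgeR in either direction, while 11.2% of all 13536 genes rose and 9.12% fell. DESeq2 called none as well, and PLAT alone of the 7 had an unadjusted p under 0.05 in edgeR. The median log2 fold change of the 7 was −0.018, and that of all genes 0.0036. PLAT had 30.002, 30.9 and 36.1 CPM in normoxia and 53.9, 39.9 and 32.7 CPM in hypoxia, overlapping through the lowest hypoxic sample. Its log2 difference of 0.39 (95% interval 0.011 to 0.76, adjusted p = 0.130) passed without HKC-8 hypoxia replicate 3 (0.54, adjusted p = 0.0488) and in a joint fit of the 18 samples (adjusted p = 0.0288).

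The spread within HKC-8 groups was wide for the urokinase genes. PLAU had 9.98, 16.8 and 12.5 CPM in normoxia and 13.99, 15.2 and 12.4 CPM in hypoxia (log2 difference 0.09, 95% interval −0.33 to 0.50), and PLAUR had 17.2, 23.8 and 13.0 CPM in normoxia and 16.4, 23.2 and 12.8 CPM in hypoxia (−0.039, −0.61 to 0.53). PLAUR samples of the same replicate number thus had nearly the same level in both conditions.

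TIMP3 had 125, 132 and 99.2 CPM in normoxia and 108, 126 and 95.8 CPM in hypoxia in HKC-8 cells (log2 difference −0.11, 95% interval −0.40 to 0.19). MMP14 had 84.0 to 102 CPM in normoxia and 89.0 to 104 CPM in hypoxia (0.10, −0.12 to 0.33). TIMP1 differed by −0.16 (−0.40 to 0.089) and TIMP2 by −0.018 (−0.28 to 0.25). The conditions overlapped in TIMP1 and TIMP2 as they did in TIMP3 and MMP14. MMP2 and MMP7, with at most 4 counts in a sample, were not tested.

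The replicate numbers of HKC-8 samples paired them, and members differed in how far the pairs moved together. In all 3 pairs the hypoxic sample was the lower for PLAUR, TIMP1 and TIMP3 and the higher for MMP14. TIMP1 went from 55.9 to 52.2, 68.4 to 61.2 and 58.2 to 50.1 CPM, and TIMP3 from 125 to 108, 132 to 126 and 99.2 to 95.8 CPM. PLAU, PLAT and TIMP2 moved in both directions over the pairs. The fit with the replicate number as a block changed no call of a member in HKC-8 cells, while it raised the number of all genes called from 1522 higher and 1235 lower to 2836 and 2919.

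**Figure D3:**
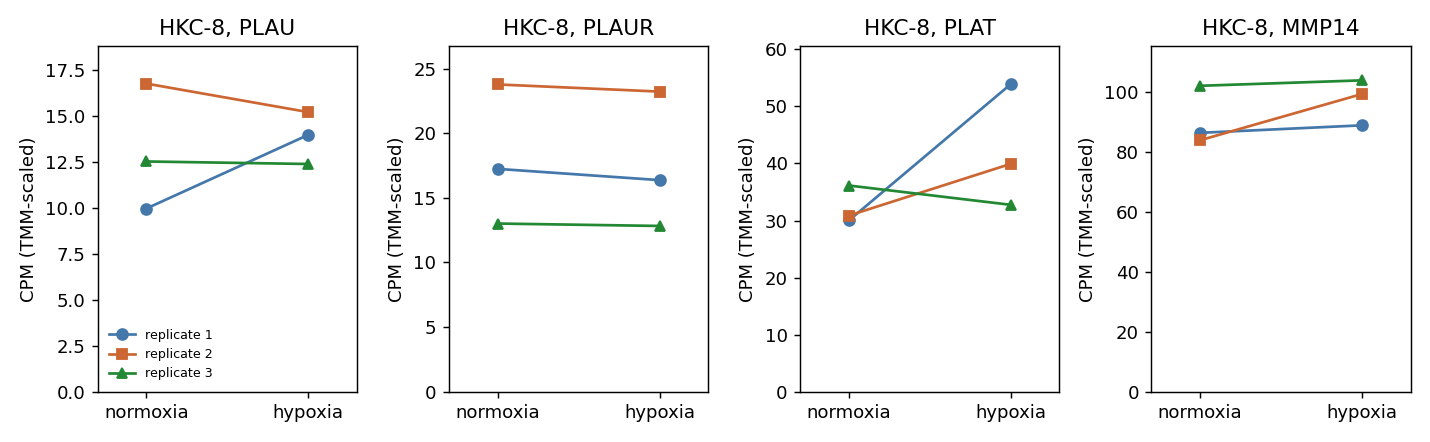
PLAU, PLAUR, PLAT and MMP14 in HKC-8 cells as TMM-scaled CPM, with lines joining the normoxic and the hypoxic sample of the same replicate number. The PLAUR lines were nearly flat at 3 different levels, from 17.2, 23.8 and 13.0 to 16.4, 23.2 and 12.8 CPM, while the PLAU and PLAT lines ran in both directions.

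**Figure D4:**
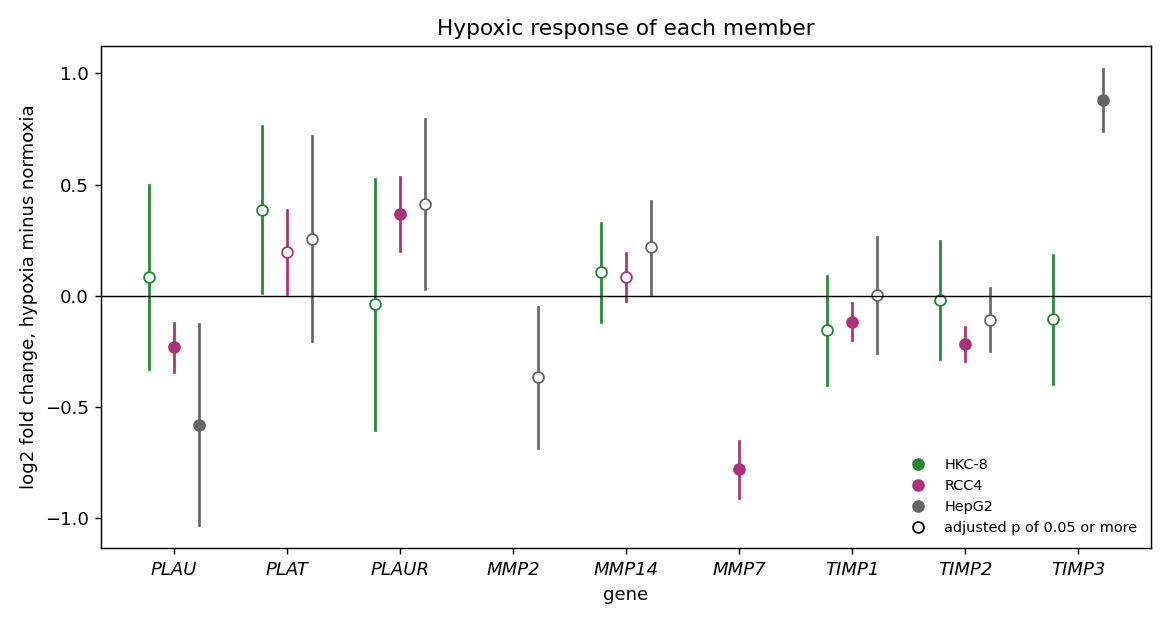
Log2 fold change of hypoxia over normoxia for each tested member in each cell line, with 95% confidence intervals of the edgeR fit as vertical lines, filled points for an adjusted p under 0.05 and open points otherwise. TIMP3 in HepG2 cells (0.88) and MMP7 in RCC4 cells (−0.78) lay farthest from 0.

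The characteristics of HKC-8 and HepG2 samples give the same exposure, and their responses were compared by an interaction term in a fit of these 12 samples. Since hypoxic HKC-8 samples are titled with a lower oxygen level, a difference in exposure cannot be told apart from one between the lines. Of 8 members tested, 1 differed without a block (9.30% of all 15046 genes did), and it was TIMP3. The TIMP3 response of HepG2 cells exceeded that of HKC-8 cells by 0.99 on the log2 scale (SE 0.16, edgeR adjusted p = 9.20e-04), and by 0.88 to 1.08 over all alternatives. With total counts the median difference of all genes was −0.10 in place of 0.0035, and 458 genes were higher and 938 lower in place of 755 and 644.

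PLAU had an interaction of −0.66 (SE 0.32, adjusted p = 0.230) and PLAUR of 0.46 (SE 0.35, adjusted p = 0.466). With the replicate number as a block, which paired HKC-8 but not HepG2 samples by the check of their correlation, both were called (PLAU −0.65, SE 0.20, adjusted p = 0.0346, and PLAUR 0.46, SE 0.14, adjusted p = 0.0298). The interactions of MMP14, TIMP1, TIMP2 and PLAT were −0.13 to 0.16. The MMP2 value of 0.039 had an SE of 0.50, as HKC-8 cells had at most 4 counts of it in a sample, and it turned negative in 8 of 18 alternatives. RCC4 cells, labelled with a different exposure, were not part of this test.

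The wider pathway was read from lists of 16 other plasminogen system genes, 20 other metalloproteinases and 4 other inhibitors and activators of metalloproteinases. Beside these lists, 11.2% of all genes tested rose and 9.12% fell in HKC-8 cells, 25.9% and 24.2% did so in RCC4 cells, and 19.9% and 19.2% in HepG2 cells. Of the plasminogen genes, 3 of 9 tested rose in HKC-8 cells, 5 of 8 in RCC4 cells and 9 of 15 in HepG2 cells, where 2 fell. Their median log2 fold changes were 0.43, 0.23 and 0.39, with the medians of all genes between −0.0044 and 0.0036. ENO1 (a glycolytic enzyme that also serves as a plasminogen receptor), LRP1 (the receptor that clears activator and inhibitor complexes) and S100A10 (a plasminogen receptor subunit) rose in all 3 lines.

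The plasminogen genes of the list with a called log2 fold change of at least 1 were LRP1 in HKC-8 cells (1.11, SE 0.08, edgeR adjusted p = 6.68e-05) and ENO1 (1.34, SE 0.06, adjusted p = 1.76e-09) and F12 (coagulation factor XII; 1.02, SE 0.18, adjusted p = 6.51e-04) in HepG2 cells. CPB2, a carboxypeptidase that slows fibrin breakdown, and the plasminogen receptor PLGRKT were the genes that fell in HepG2 cells, by 0.46 and 0.37. PLG itself, the gene for plasminogen, was tested in HepG2 cells alone, at 1.02 ± 0.19 CPM in normoxia and 0.79 ± 0.09 CPM in hypoxia (adjusted p = 0.304).

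Of the other metalloproteinases, 3 of 7 tested rose in HKC-8 cells, 2 of 9 rose and 3 fell in RCC4 cells, and 1 of 8 rose in HepG2 cells, with medians of 0.12, −0.051 and 0.16. The counts in RCC4 cells lay near the shares of all genes (25.9% higher and 24.2% lower), that in HepG2 cells compares with 19.9% of all genes and that in HKC-8 cells with 11.2%. The membrane-type MMP24 was the gene called as higher in all 3 lines, from 32.0 ± 6.76 to 72.1 ± 5.22 CPM in HKC-8 cells (1.18, SE 0.14, edgeR adjusted p = 9.42e-04), and by 0.33 in RCC4 and 0.47 in HepG2 cells. MMP25 (1.36, SE 0.42, adjusted p = 0.0499) and MMP11 (1.27, SE 0.36, adjusted p = 0.0381) also rose in HKC-8 cells with group means of 0.0989 to 1.76 CPM. The MMP25 call was thus at the threshold, at means of 0.0989 and 0.255 CPM. MMP10 fell by 1.27 in RCC4 cells, from 0.68 ± 0.0085 to 0.28 ± 0.061 CPM. MMP11 fell by 0.40 in RCC4 cells. Of TIMP4, RECK, FURIN and BSG, none of 4 tested was called in HKC-8 cells, 1 of 3 rose in RCC4 cells (BSG, an inducer of metalloproteinases) and 3 of 4 rose in HepG2 cells (BSG, FURIN, which activates MMP14, and RECK, a membrane-anchored inhibitor), by 0.30 to 0.38, where 11.2%, 25.9% and 19.9% of all genes rose.

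**Figure D5:**
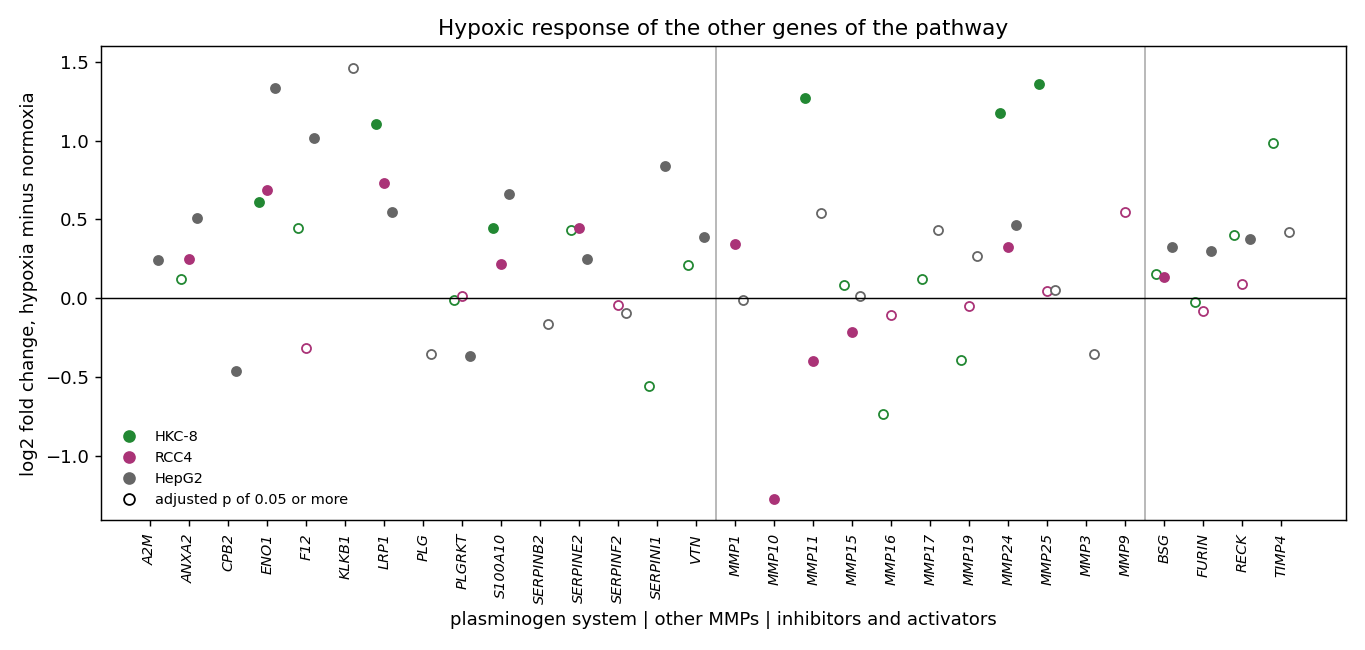
Log2 fold change of hypoxia over normoxia for the other genes of the pathway that were tested, in 3 blocks (plasminogen system, other MMPs, inhibitors and activators), coloured by cell line, with filled points for an edgeR adjusted p under 0.05. Among called genes MMP25 in HKC-8 cells at 1.36 (edgeR adjusted p = 0.0499) lay highest and MMP10 in RCC4 cells at −1.27 lowest, both with group means below 1 CPM in that line.

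The genes that varied most like each member were read from Pearson's r of log2 CPM over the 18 samples, after each line's own mean was subtracted, among 15306 genes. The samples share line, depth and condition, and r is a description. TIMP3 was closest to CKB (brain-type creatine kinase, r = 0.976) and SDPR (a caveolar protein, r = 0.974). Within lines the r with CKB was 0.972 in HKC-8 and 0.993 in HepG2 cells, while the constant 0 of TIMP3 in RCC4 cells gave it no information there. PLAU was closest to DUSP5 (a phosphatase that inactivates ERK, r = 0.892) and C3orf52 (r = 0.859). PLAUR was closest to FKBP1AP1 (r = 0.876) and FJX1 (r = 0.863), and PLAT to SERGEF (r = 0.879) and ALOX12B (r = 0.864). Within RCC4 cells the r of PLAU was 0.961 with DUSP5 but 0.323 with C3orf52. That of PLAUR was 0.893 with FJX1 but 0.357 with FKBP1AP1, so the likeness was not equal in all lines. TIMP2 was closest to TPP1 (a lysosomal peptidase, r = 0.915) and CYB561D1 (r = 0.847), TIMP1 to APEX2 (r = 0.873) and HMGA1 (r = 0.870), and MMP14 to PACS1 (r = 0.849) and CPT2 (r = 0.848). The closest genes of MMP2 (ALDH2, r = 0.846, and REEP2, r = 0.838) and MMP7 (GPR137, r = 0.839, and MAMDC2, r = 0.809) rest in part on lines in which the member had few counts.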

How the data were processed

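RNA of 18 samples (3 cell lines, normoxia and hypoxia, 3 samples each) was prepared with a ScriptSeq v2 kit. The authors trimmed adapters, aligned reads to GRCh37 with Tophat 2.0.8b and bowtie 1.0.0, removed fragments that did not map uniquely (SAMtools 0.1.19), and counted reads on UCSC genes with HTSeq 0.5.4p3 (intersection-strict). The deposited values are these raw read counts per gene, without normalization. Genes with near-identical copies can lose reads by that removal.

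From the counts, edgeR 4.0.16 (R 4.3.3) was used with filterByExpr, TMM factors, glmQLFit and glmQLFTest, two-sided, with Benjamini-Hochberg adjustment over all genes tested and a threshold of 0.05. Each line was fitted alone, the interaction over 12 samples and the line contrasts over the 9 normoxic samples. Every adjusted p is from this edgeR test unless DESeq2 (1.42.0) is named. Total counts of 40915980 to 97984260 set the floor of 3 counts at 0.0306 to 0.0733 CPM, and intervals of count ratios cover counting error only. Lengths, positions and overlaps came from GENCODE (GRCh37) and promoters from RefSeq (GRCh38.p14), read with Python 3.11.15. Named were all 9 members, list genes called at 1 or more on the log2 scale in either direction (at most 5 per list and line) and the 2 genes most like each member. ENO1, S100A10, CPB2, PLGRKT, PLG, BSG, FURIN, RECK, MMP1, MMP3, MMP15, CA9, EGLN3 and further changes of MMP11 and MMP24 were named after their values were seen. A further gene that the rule names is not reported here and was taken out of its list. The members and lists were chosen with earlier results of these data known.

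The normoxic and hypoxic samples of a line share replicate numbers in their labels. After each group's mean was subtracted, samples with the same number correlated across genes at 0.176 to 0.631 in HKC-8 cells, where all 3 pairs exceeded 0.1 and the numbers were taken to pair the samples, at −0.0065 to 0.033 in RCC4 and at 0.055 to 0.231 in HepG2 cells (2 of 3 pairs), where they were not. No pair of samples in a group held the same counts. On counts simulated from these libraries with known log2 changes of 1.5, the test recovered 91.5% of changed genes in HKC-8 (13427 genes), 97.5% in RCC4 (12744) and 97.0% in HepG2 cells (13515), with 4.71%, 11.1% and 6.83% of calls on unchanged genes, and 83.2% for the interaction (14747). In each line 197 to 199 tested genes were changed. Their change was larger than every hypoxic change of a member called in the main fits, so the recovery of smaller changes is not known from it. The 11.1% of RCC4 cells was above the rate that a threshold of 0.05 aims at. Alternatives were DESeq2, a block for the replicate number, leaving out each sample in turn, scaling by total counts alone or by median-of-ratios factors, keeping every gene or only those with 10 counts or more throughout, a joint fit of the 18 samples, and the longest transcript as the length.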

Additional observations from a re-analysis of the deposited data

Results flagged for a closer look

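The hypoxic responses of HepG2 and HKC-8 cells differed for TIMP3 by a test of the difference itself. The TIMP3 response was 0.99 higher on the log2 scale in HepG2 cells (SE 0.16, edgeR adjusted p = 9.20e-04), with 0.88 in HepG2 and −0.11 in HKC-8 cells, and all 3 hypoxic HepG2 samples lay above all 3 normoxic samples. Hypoxic HKC-8 samples are titled with a lower oxygen level than HepG2 samples, so exposure and line cannot be told apart here. Groups of 3 samples were too small to test single samples as outliers.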

How the results depend on the processing

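With 3 samples a group and a wide spread in HKC-8 cells, the fits without a block could not detect differences within the intervals given. Those intervals for HKC-8 cells include the spread between pairs, which the replicate block takes out. Counts of called members moved as follows. With 1 fit of all 18 samples 1 member was higher in HKC-8 cells (PLAT), and in RCC4 cells 1 was lower (MMP7) and 1 higher (MMP2 in place of PLAUR). Without the low-count filter 2 were higher in RCC4 cells, and 2 higher and 2 lower in HepG2 cells (PLAUR and MMP2 added). In HepG2 cells DESeq2 called 2 higher and 0 lower, and total counts 3 lower. With the replicate block, 3 were higher (TIMP3, PLAUR and MMP14) and 2 lower (PLAU and MMP2) in HepG2 cells. In the interaction the block gave 2 higher and 1 lower, where PLAUR (0.46, adjusted p = 0.0298) and PLAU (−0.65, adjusted p = 0.0346) joined TIMP3. The HepG2 samples share only a number. The block changed no other call of a member. With at least 10 counts in every sample, which removes MMP2, MMP7 and TIMP3 from the normoxic contrasts, 2 members were lower in RCC4 than in HKC-8 cells, and 1 was higher in HepG2 cells than in either kidney line. With 1 sample left out, the counts ranged over 0 to 1 higher in HKC-8, 1 to 2 higher and 3 to 4 lower in RCC4, 1 to 3 higher and 0 to 1 lower in HepG2 cells, and 2 to 4 lower in normoxic RCC4 against HKC-8 cells. Uncalled values that turned sign were MMP14 in RCC4 cells (−2.38e-05) and TIMP1 in HepG2 cells (−0.090) with total counts, and the MMP2 interaction with total counts (−0.059) and the block (−0.060). With 1 sample left out, HKC-8 values ranged over −0.080 to 0.30 for PLAU, −0.30 to 0.21 for PLAUR and −0.098 to 0.12 for TIMP2, HepG2 TIMP1 over −0.14 to 0.11, and the interaction over −0.0070 to 0.19 for MMP14, −0.36 to 0.56 for MMP2 and −0.28 to 0.086 for PLAT. Genes called higher and lower in HKC-8 cells numbered 1522 and 1235, but 2503 and 2510 with all 18 samples and 687 and 326 without HKC-8 normoxia replicate 1, with losses of over 1.5 times also without HKC-8 normoxia replicate 2 (933 and 522) or HKC-8 hypoxia replicate 1 (750 and 342), and of lower calls without HKC-8 hypoxia replicate 3 (675). In RCC4 cells all 18 samples gave 1867 and 1419 in place of 3318 and 3105. In the interaction all 18 samples gave 1209 and 1010 and the block 1656 and 1363 in place of 755 and 644, higher calls numbered 492, 481 and 501 without HepG2 normoxia replicate 2, HepG2 hypoxia replicate 1 and HepG2 hypoxia replicate 3, and lower calls 1000 without HKC-8 normoxia replicate 3. The cause of these changes was not tested.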

Other observations

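Metalloproteinases outside the 9 members were also unevenly spread over the lines. MMP1, interstitial collagenase, averaged 96.4 ± 2.58 CPM in normoxic RCC4 cells, where it rose by 0.34 in hypoxia (edgeR adjusted p = 3.20e-07), and 0.88 ± 0.42 CPM in normoxic HepG2 cells. MMP3, stromelysin, was tested in HepG2 cells alone, at 11.6 ± 5.01 CPM in normoxia and 9.12 ± 1.85 CPM in hypoxia (adjusted p = 0.264). The membrane-type MMP15 averaged 112 ± 3.72 CPM in normoxic HepG2, 51.4 ± 4.53 in RCC4 and 16.8 ± 0.14 CPM in HKC-8 cells, and it fell by 0.21 in hypoxic RCC4 cells (adjusted p = 0.00268). MMP24 had its highest mean in RCC4 cells, at 152 ± 3.39 CPM in normoxia. In the same edgeR fit of normoxic samples, MMP15 was 2.76 higher on the log2 scale in HepG2 than in HKC-8 cells (SE 0.077, adjusted p = 5.47e-13), and MMP24 was lower in HepG2 than in RCC4 cells, with a log2 difference of −5.17 (SE 0.15, adjusted p = 5.74e-13). Of all genes tested, 83.0% and 83.3% differed in these 2 contrasts.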
